A study of Homo sapiens with 6 samples.

Results

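Adrenomedullin and its receptor genes are 6 of the 60107 genes counted: the ligand genes ADM and ADM2, the receptor gene CALCRL and the receptor activity-modifying protein genes RAMP1, RAMP2 and RAMP3. The members were taken by gene symbol, and all 6 had a row in the count table. The set was chosen by the measured level of ADM, which was higher in all libraries without glutamine, so the difference of ADM between the groups is a description and carries no test. The other 5 members were added as partners of ADM in the same ligand and receptor system. The low-count filter passed 5 of the 6 members, all but RAMP3, and the 4 of these other than ADM (ADM2, CALCRL, RAMP1 and RAMP2) were tested.

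Adrenomedullin is a secreted peptide that widens blood vessels, acts on the kidney as a natriuretic hormone and is needed for the growth of blood and lymphatic vessels in the embryo. It signals through CALCRL, a receptor of the class B family coupled to cyclic AMP, which reaches the cell surface only in a complex with a RAMP. The RAMP sets the preference of the receptor: with RAMP1 it binds calcitonin gene-related peptide best, and with RAMP2 or RAMP3 it binds adrenomedullin. ADM2, also called intermedin, encodes a related peptide that acts on all of these complexes. ADM is widely used as a transcript induced by low oxygen, and ADM2 has been described as a target of ATF4, the transcription factor of the amino acid response.

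The source of the RNA was H9, a long-established line of human embryonic stem cells, collected at the end of day 9 of a directed differentiation to nephron progenitor cells. One group of 3 libraries was grown in complete media, with glutamine, and the other group of 3 was deprived of glutamine from the first day on. All 6 libraries share the line, the protocol and the day. The labels do not say whether the replicates were separate cultures, so a p-value measures only the spread between these libraries.

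The libraries held 78220507 to 84746566 counts each, and single-library values are in CPM, the count relative to a library size scaled by the trimmed mean of M-values. The library labelled replicate 1 with glutamine stood apart: across genes, its log2 CPM correlated less with replicates 2 and 3 of its own condition (Pearson's r 0.9758 and 0.9762) than with the libraries without glutamine (0.9908 to 0.9927). Nephron progenitor markers were present, with WT1 at 225 to 376 CPM and SALL1 at 112 to 170 CPM over all 6 libraries, while HOXD11 was at 0 to 0.542 CPM with glutamine and 3.22 to 6.05 CPM without. Of the 5 pluripotency markers, NANOG, TDGF1 and POU5F1 were at most 0.151 CPM. ZFP42 was at 7.18 to 7.41 CPM with and 8.03 to 11.8 CPM without glutamine, and UTF1 was at 0.153 to 0.407 CPM with and 0.509 to 2.09 CPM without, both without overlap. In bulk RNA, fewer cells of a type and less RNA per cell cannot be told apart.

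**Figure D1:**
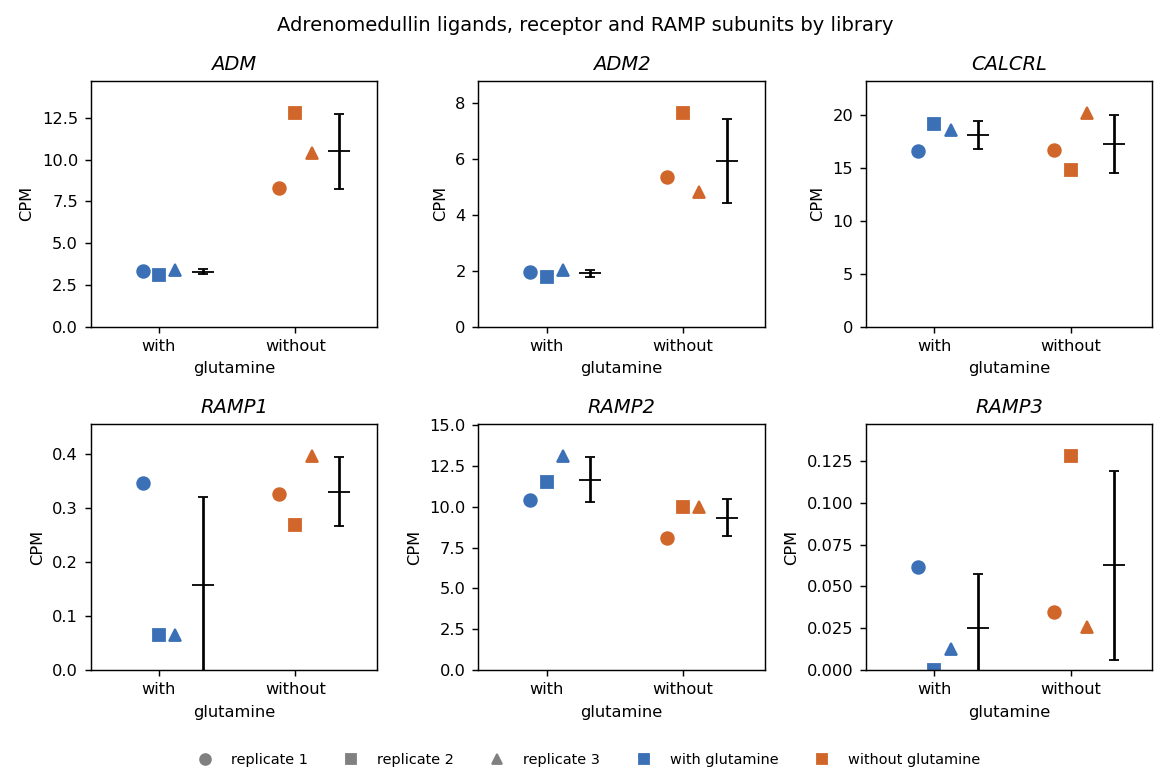
Level of each of the 6 members in CPM (vertical axis, from 0, its range differing by gene) in the libraries with and without glutamine; points are libraries, shapes are replicate numbers, and the black bar is the mean ± SD (n = 3), drawn only above 0. ADM and ADM2 lie higher in all 3 libraries without glutamine, CALCRL overlaps between groups, and replicate 1 with glutamine lies with the other group for RAMP1.

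Both ligand transcripts were about as low in replicate 1 with glutamine as in the other libraries of its group, and the means without glutamine were 3.19 times those with it for ADM and 3.11 times for ADM2. ADM (ENSG00000148926; chromosome 11, 10304680 to 10307397, plus strand, GENCODE 29 on GRCh38) had levels of 3.32, 3.12 and 3.42 CPM in glutamine replicates 1, 2 and 3, against 8.29, 12.8 and 10.4 CPM in the deprived replicates 1, 2 and 3. The groups did not overlap, which the choice of ADM fixes, and the lowest library without glutamine was 2.42 times the highest with it. The mean was 3.29 ± 0.152 CPM with and 10.5 ± 2.24 CPM without glutamine (SD, n = 3). The log2 fold change, without over with glutamine, was 1.67 (SE 0.18). Of all 22613 genes tested, 1.53% had a larger log2 fold change. ADM rested on 244 to 269 counts in each library with glutamine and 713 to 1001 without, so the counting error of a single library was 3.16% to 6.4%.

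ADM2 (ENSG00000128165; chromosome 22, 50481556 to 50486440, plus strand) was at 1.95, 1.77 and 2.01 CPM with glutamine and at 5.34, 7.64 and 4.80 CPM without. Replicate 1 lay between the other libraries of its group, and every library without glutamine was at least 2.39 times the highest with it. The means were 1.91 ± 0.126 and 5.93 ± 1.51 CPM (SD, n = 3), and the log2 fold change was 1.63 (SE 0.21), a size reached by 1.7% of all genes tested. By edgeR's quasi-likelihood test the Benjamini-Hochberg adjusted p was 0.068, above the threshold of 0.05, and 21 of the 22613 genes, or 0.0929%, had an unadjusted p at or below that of ADM2 (9.21e-05). An adjusted p under 0.1 was found for 3285 genes, or 14.5%. Without replicate 1 with glutamine the log2 fold change of ADM2 was 1.65 and its edgeR adjusted p was 0.00028, in a fit that called 41.3% of its genes.

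None of the 4 members with a test was called with all libraries by edgeR, which called 1 of 22613 genes, or 0.00442%. At an unadjusted p under 0.05 the count was 2 of 4, ADM2 and RAMP2, against 29.7% of all genes. DESeq2 called 1 of the 4, ADM2 (log2 fold change 1.64, adjusted p 8.24e-11), against 7.75% of its genes called higher and 14.4% called in either direction. Limma-voom called 0 of the 4, with 3, RAMP1 among them, at an unadjusted p under 0.05. Without replicate 1 with glutamine edgeR called ADM2 higher and RAMP2 lower but not CALCRL, against 22.3% of all genes called higher and 19% called lower. RAMP1 is left out of that count, because with 5 counts in each remaining library with glutamine it passed the filter only through the libraries without. With all libraries RAMP1 also needed the libraries without glutamine to pass, so its place among the 4 is a description.

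The ratio of ADM to ADM2 was steady while both levels differed between the groups. Divided by exon length, to make levels of different genes comparable, ADM was 2.68, 2.78 and 2.68 times ADM2 with glutamine and 2.44, 2.63 and 3.42 times without. The means were 2.71 ± 0.0596 and 2.83 ± 0.517 (SD, n = 3), so the difference between the groups was smaller than the spread without glutamine. The joined exons of ADM cover 2718 bases, against 1889 in its longest transcript. The size of the ratio therefore depends on the length used, but its comparison between the groups does not.

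The sequences just before the start sites of both ligand genes are shown because both genes were higher in every library without glutamine. The 250 bases before each RefSeq start site (GRCh38.p14) were searched on both strands for the hypoxia response core ACGTG or GCGTG, for TGATGCAA, the joint C/EBP and ATF4 motif, for TGATGNAA, which includes it, and for the cyclic AMP response element TGACGTCA, and on the gene's strand for TATAAA. Capitals mark a match. For ADM only windows of 30 bases are shown, at chr11:10304960-10304989 and chr11:10305034-10305063 on the plus strand. Annotated exons of ADM begin further upstream, at base 10304680, and cover these 250 bases, the windows included. The stretch for ADM2 is chr22:50481293-50481542, also on the plus strand.
ADM, bases -113 to -84 from the start: gagcaggagcgcGCGTGgctgaggaaagaa
ADM, bases -39 to -10 from the start: cacccgtgcgctTATAAAgcacaggaacca
ADM2, bases -250 to -1 from the start: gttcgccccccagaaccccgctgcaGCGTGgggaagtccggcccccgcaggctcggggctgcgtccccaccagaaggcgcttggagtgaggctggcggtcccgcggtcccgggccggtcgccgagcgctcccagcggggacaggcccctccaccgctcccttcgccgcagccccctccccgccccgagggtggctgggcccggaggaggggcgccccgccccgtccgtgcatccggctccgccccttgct

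Each ligand gene held 1 GCGTG, at base -101 in ADM and -225 in ADM2, a motif found in 32.2% of the 35116 promoters searched. ADM also held a TATAAA at base -27, which 6.8% of promoters hold on the gene's strand. ACGTG, TGATGCAA, TGATGNAA and TGACGTCA were in neither stretch, and 18.5%, 0.772%, 3.14% and 1.65% of all promoters held them. The 250 bases were 68% G and C in ADM and 78.8% in ADM2, against a median of 58% over all promoters. RAMP3 held a GCGTG and CALCRL, which had no hypoxia core in its 250 bases, held a TGATGNAA. RAMP1 and RAMP2 were not searched.

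CALCRL, the receptor itself, differed little between the groups. CALCRL (ENSG00000064989; chromosome 2, 187343129 to 187448460, minus strand) was at 16.6, 19.2 and 18.6 CPM with glutamine and at 16.7, 14.8 and 20.2 CPM without. The groups overlapped, with both the lowest and the highest library in the group without glutamine. The means were 18.1 ± 1.38 and 17.2 ± 2.72 CPM (SD, n = 3). By edgeR the log2 fold change was -0.07 with an SE of 0.13 and an adjusted p of 0.729. Leaving out replicate 2 without glutamine turned the sign, to 0.03. An antisense gene lies within CALCRL without sharing exons, and it had at most 24 counts in a library against at least 1160 for CALCRL.

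RAMP2, the subunit of the main adrenomedullin receptor, was by far the most abundant of the 3 RAMPs and slightly lower without glutamine. RAMP2 (ENSG00000131477; chromosome 17, 42758447 to 42763041, plus strand) was at 10.4, 11.5 and 13.1 CPM with glutamine and at 8.06, 10.0 and 9.96 CPM without. The groups did not overlap, but the gap was small: the highest library without glutamine was 0.962 times the lowest with it. The log2 fold change was -0.32 (SE 0.13), and the edgeR adjusted p was 0.166. It was -0.39 without replicate 1 with glutamine, at an edgeR adjusted p of 0.0245.

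RAMP2 shares exon sequence with RAMP2-AS1, a noncoding gene on the opposite strand, and the strand setting of the counting is not given in the sources used here, so reads of the pair may not be fully separated. RAMP2-AS1 was at 7.79, 8.85 and 8.83 CPM with glutamine and at 5.60, 5.31 and 6.04 CPM without, also with no overlap. By edgeR it had a log2 fold change of -0.59 with an SE of 0.11 and an adjusted p of 0.0682, and the adjusted p was 0.00081 without replicate 1 with glutamine. Among all genes tested, 17.3% had groups that did not overlap with the higher values without glutamine, and 16.9% with the lower values there. Of the 4 members with a test, ADM2 belongs to the first kind and RAMP2 to the second. ADM is left out, because its choice fixes that its groups do not overlap.

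RAMP1, the subunit of the calcitonin gene-related peptide receptor, was as high in replicate 1 with glutamine as in the libraries without. RAMP1 (ENSG00000132329; chromosome 2, 237858893 to 237912114, plus strand) had 28, 5 and 5 counts in replicates 1, 2 and 3 with glutamine and 28, 21 and 31 without. In CPM these were 0.345, 0.0640 and 0.0636 with and 0.326, 0.268 and 0.395 without, so replicate 1 with glutamine was among the 4 high libraries. With all libraries the edgeR log2 fold change was 1.04, with an SE of 0.57 and an adjusted p of 0.258. RAMP1 needed the libraries without glutamine to pass the filter in this fit. Without replicate 1 with glutamine the log2 fold change was 2.34 with an SE of 0.41. It is given as a description, because RAMP1 then passed the low-count filter only through the group where it was high. The counting error was 18% to 21.8% in the 4 high libraries and 44.7% in the low ones.

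RAMP3 (ENSG00000122679; chromosome 7, 45157791 to 45186302, plus strand) was barely detected and was not tested. It had 5, 0 and 1 counts with glutamine and 3, 10 and 2 without, and the count of 0 allows up to 0.0384 CPM, taking 3 counts as the limit. Such limits cover counting error only. At this depth the counts cannot decide whether RAMP3 differed between the groups.

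Per length, RAMP2 stood at the top of the system in both groups and the ligands stood higher relative to the receptor without glutamine. With glutamine the means were 10.2 ± 1.16 CPM per kb of exon for RAMP2, 2.95 ± 0.225 for CALCRL, 1.21 ± 0.0557 for ADM, 0.446 ± 0.0296 for ADM2 and 0.128 ± 0.132 for RAMP1 (SD, n = 3). Without glutamine they were 8.15 ± 0.978 for RAMP2, 3.86 ± 0.825 for ADM, 2.80 ± 0.442 for CALCRL, 1.39 ± 0.353 for ADM2 and 0.267 ± 0.0514 for RAMP1. ADM was thus below CALCRL in every library with glutamine, at 0.452, 0.368 and 0.416 times its level. It was above CALCRL in every library without, at 1.12, 1.95 and 1.17 times, although across libraries ADM (3.05 to 4.70 CPM per kb) and CALCRL (2.41 to 3.28) overlapped there. ADM2 was at 0.169, 0.132 and 0.155 times the CALCRL level with glutamine and 0.460, 0.742 and 0.342 times without, which gave a two-sided exact permutation p of 0.1, the smallest that 3 against 3 libraries allow. RAMP2 exceeded CALCRL by 3.45 ± 0.287 times with and 2.95 ± 0.588 times without glutamine (two-sided exact permutation p = 0.3).

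**Figure D2:**
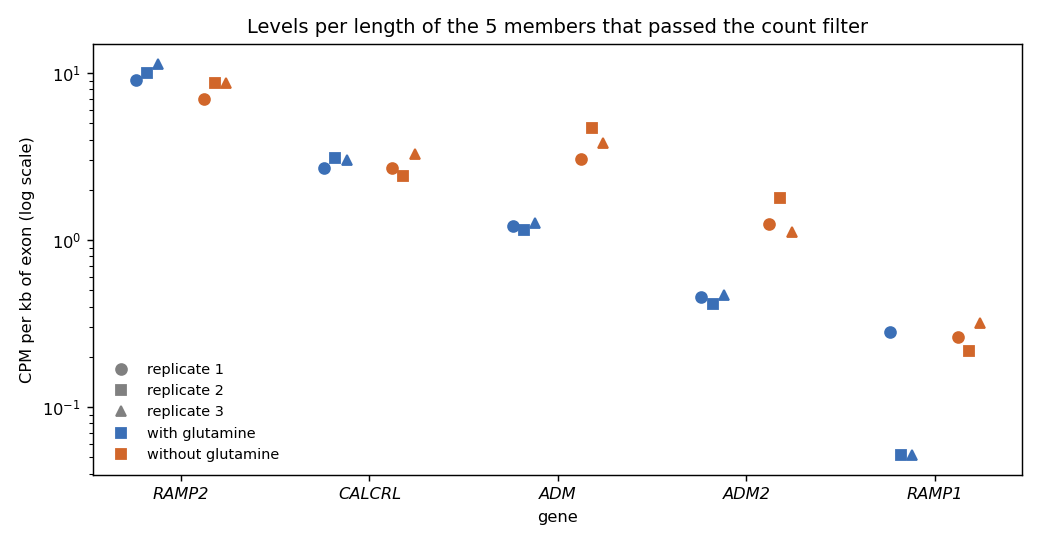
CPM per kb of exon (vertical axis, log scale) of the 5 members that passed the low-count filter, by library; colours are the groups and shapes the replicate numbers. RAMP2 is highest in all 6 libraries, ADM passes from below CALCRL with glutamine to above it without, and RAMP1 is lowest.

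Among the RAMPs, RAMP2 made up nearly all of the summed level per length in every library. Its share was 96.6%, 99.5% and 99.5% with glutamine and 96.1%, 96.6% and 96.3% without. The share of RAMP1 was 2.97%, 0.516% and 0.450% with and 3.61%, 2.40% and 3.55% without, and replicate 1 with glutamine lay within the range of the other group. The group means of RAMP1 differed by 1.87 percentage points and those of RAMP2 by -2.20 (without minus with, two-sided exact permutation p = 0.2 for each). RAMP3 held 0% to 0.988% of the sum.

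The gene most like ADM over the 6 libraries, among 15594 genes of at least 1 CPM, was ADM2, and the gene most like ADM2 was ADM. Likeness was the root mean square difference of log2 CPM after each gene's mean was removed, and it was 0.150 for this pair (Pearson's r 0.984 over 6 libraries, a description that rests mostly on the step between the groups). The next for ADM were HBEGF, a growth factor of the epidermal growth factor family, at a difference of 0.155, and CAVIN1, a coat protein of caveolae, at 0.162. ANXA3, a calcium-dependent membrane-binding protein, followed at 0.180 and ALPK2, an atypical kinase, at 0.193. HBEGF was at 4.29, 4.17 and 4.39 CPM with glutamine and at 8.61, 16.4 and 15.6 CPM without. As in ADM, replicate 1 without glutamine was the lowest of its group in HBEGF, CAVIN1, ANXA3 and ALPK2, whereas in ADM2 the lowest was replicate 3. The choice by likeness to ADM favours such a shared order, which is given as a description. For ADM2 the next gene was SLC7A11, the cystine and glutamate transporter that was the single gene called by edgeR, at a difference of 0.206. SLC7A11 was at 20.8, 17.9 and 19.0 CPM with glutamine and at 45.0, 53.2 and 48.8 CPM without.

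**Figure D3:**
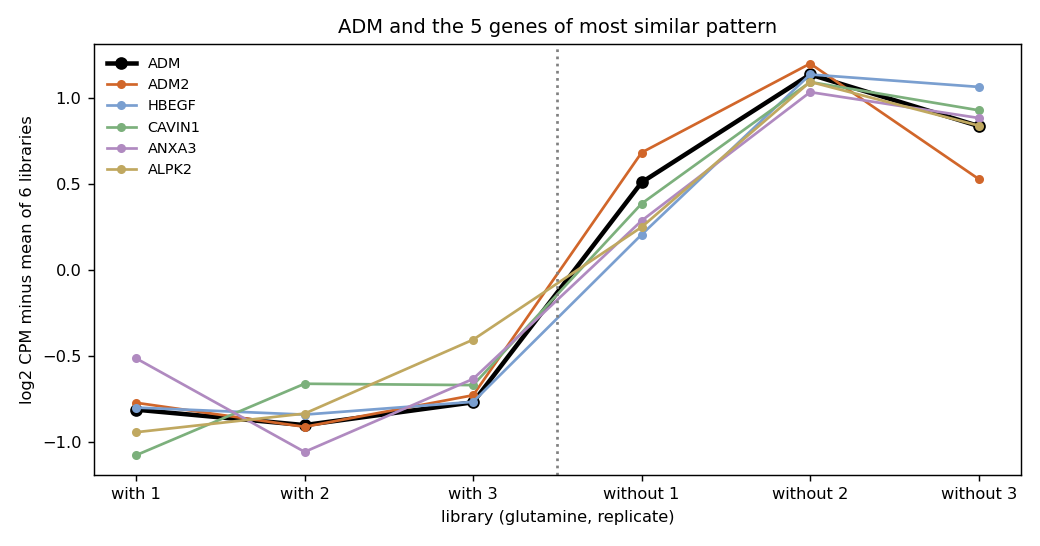
Log2 CPM minus the gene's mean over the 6 libraries (vertical axis) for ADM and the 5 genes closest to it; points are libraries, lines only join the points of 1 gene, and the dotted line separates the groups. All 6 genes lie below their mean in the 3 libraries with glutamine and above it in the 3 without, replicate 1 with glutamine included. The choice by likeness to ADM favours this.

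The rest of the calcitonin peptide family was scarce. CALCA and CALCB, which encode calcitonin and the calcitonin gene-related peptides, CALCR, the calcitonin receptor, IAPP, which encodes amylin, and ADM5 all stayed at or below 1.65 CPM in every library. None of the 5 was called by edgeR with all libraries, and 3 were higher and 0 lower without overlap (17.3% and 16.9% of all genes tested). DESeq2 called 2 higher (7.75% of its genes), the same number that had an unadjusted edgeR p under 0.05 (29.7% of all genes in either direction). Their median log2 fold change was 0.49, against 0.00 over all genes tested. Without replicate 1 with glutamine edgeR called 3 higher and 1 lower, against 22.3% and 19% of all genes in that fit, at a median of 0.95. CALCA was at 0.505, 0.0768 and 0.0255 CPM with glutamine and at 0.825, 1.12 and 0.942 CPM without (edgeR log2 fold change 2.22, SE 0.63). With 41, 6 and 2 counts with glutamine, CALCA needed the libraries without glutamine to pass the filter with all libraries. Its part in the counts of this list is therefore a description. Replicate 1 with glutamine lay between its group and the other one, and without it the log2 fold change was 4.19, with CALCA passing the filter only through the libraries without glutamine.

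Genes of peptide processing and amidation differed widely in level, with PCSK1, PCSK2 and PCSK1N at or below 3.85 CPM in every library. None of the 10 was called by edgeR with all libraries. PAM, the enzyme that amidates the end of adrenomedullin as its activity requires, was at 202, 133 and 134 CPM with glutamine and at 222, 242 and 241 CPM without. The edgeR log2 fold change of PAM was 0.59 with an SE of 0.17 and an adjusted p of 0.0857, and 4 of the 10 genes were higher and 1 lower without overlap (17.3% and 16.9% of all genes tested). PCSK1N was 1 of the 4, with 21, 6 and 6 counts with glutamine and 155, 54 and 51 without. It needed the libraries without glutamine to pass the filter, so its part in the counts of this list is a description. CPE, a carboxypeptidase that trims peptide precursors, had a log2 fold change of 1.01, PCSK1, a prohormone convertase, 0.93, and PCSK5, a convertase of the same family, -0.67, with edgeR adjusted p of 0.0799, 0.0887 and 0.0881. The median of the list was 0.24. DESeq2 called 4 higher and 1 lower, against 14.4% of its genes in either direction. As many had an unadjusted edgeR p under 0.05, against 29.7% of all genes. Without replicate 1 with glutamine edgeR called 5 higher and 2 lower, against 22.3% and 19% of all genes in that fit. The median there was 0.18.

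Receptor coupling and trafficking genes were spread around 0, at a median log2 fold change of -0.09. Of the 10, 2 were higher and 3 lower without overlap (17.3% and 16.9% of all genes tested), and edgeR called none with all libraries. CRCP, an accessory protein that couples CALCRL to signalling, was at 34.5, 31.1 and 32.7 CPM with glutamine and at 40.5, 38.7 and 37.8 CPM without (log2 fold change 0.25, edgeR adjusted p 0.0949). GNAS, the stimulatory G protein through which the receptor raises cyclic AMP, was at 1007 to 1204 CPM with glutamine and 1044 to 1102 CPM without. The receptor kinases GRK3 and GRK5 had log2 fold changes of -0.50 and -0.85 (edgeR adjusted p 0.0762 and 0.0874), and the scaffold NHERF1, which binds RAMP3, had 0.46 (0.126). DESeq2 called 0 of the 10 higher and 2 lower, against 14.4% of its genes in either direction. At an unadjusted edgeR p under 0.05 there were 2 higher and 3 lower, against 29.7% of all genes. Without replicate 1 with glutamine edgeR also called 2 higher and 3 lower, against 22.3% and 19% of all genes in that fit.

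Among genes that clear the peptide, replicate 1 with glutamine was near the other group for ACKR3 and ECE1. ACKR3, a decoy receptor that takes up adrenomedullin, was at 21.2, 7.21 and 6.39 CPM with glutamine and at 21.2, 22.2 and 26.2 CPM without. ECE1, a membrane peptidase known for activating endothelin, had 104, 48.7 and 49.3 CPM with glutamine against 106, 97.6 and 99.8 CPM without. MME, a peptidase that degrades adrenomedullin, was at 23.9, 24.4 and 28.3 CPM with glutamine and had a log2 fold change of -0.02. None of the 4 genes reported was called by edgeR with all libraries, and 1 was higher without overlap (17.3% of all genes tested). Without replicate 1 with glutamine edgeR called 3 higher, against 22.3% of all genes in that fit. The median there was 0.68 in place of 0.41. DESeq2 called 0 (14.4% of its genes in either direction), and 1 had an unadjusted edgeR p under 0.05, as had 29.7% of all genes.

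Downstream of the receptor, the cyclic AMP signalling list centred near 0, with a median log2 fold change of 0.06 over 26 genes. None was called by edgeR with all libraries, and DESeq2 called 4 higher, against 7.75% of its genes. Without overlap 6 were higher and 2 lower (17.3% and 16.9% of all genes tested). At an unadjusted edgeR p under 0.05 there were 5 higher and 1 lower, against 29.7% of all genes in either direction. Without replicate 1 with glutamine edgeR called 7 higher and 4 lower, against 22.3% and 19% of all genes in that fit. PRKAR2B, a regulatory subunit of protein kinase A, was at 35.9, 29.9 and 30.4 CPM with glutamine and at 50.4, 47.7 and 45.4 CPM without (log2 fold change 0.58, SE 0.10, edgeR adjusted p 0.068). RAPGEF3, a cyclic AMP sensor that activates RAP1, had 26.3, 11.9 and 9.89 CPM with glutamine against 32.4, 30.2 and 28.6 CPM without (0.92, SE 0.34, edgeR adjusted p 0.133). Of 11 genes that respond to cyclic AMP, many of them also to other signals, 4 were higher and 0 lower without overlap (17.3% and 16.9% of all genes tested), at a median of 0.15 and with none called by edgeR with all libraries. JUNB, DUSP1, NR4A2 and FOS were those 4, with log2 fold changes of 0.59, 0.64, 0.57 and 0.30. NR4A1 was at -0.54, with overlapping groups. DESeq2 called 3 of the 11 higher, against 7.75% of its genes. At an unadjusted edgeR p under 0.05 there were 3 higher and 1 lower, against 29.7% of all genes. Without replicate 1 with glutamine edgeR called 4 higher and 1 lower, against 22.3% and 19% of all genes in that fit.

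The other hypoxia-responsive genes, a list without ADM, centred near 0. Their median log2 fold change was -0.04 over 26 genes, none called by edgeR with all libraries, and 1, INSIG2, was higher without overlap (17.3% of all genes tested). VEGFA, which encodes a vascular growth factor, was at 120, 95.0 and 79.2 CPM with glutamine and at 134, 147 and 119 CPM without (log2 fold change 0.44, edgeR adjusted p 0.126). LDHA, lactate dehydrogenase A, had 392, 938 and 1036 CPM with glutamine against 486, 603 and 506 CPM without, and PDK1, BNIP3 and P4HA1 were likewise lowest in replicate 1 with glutamine. Without that library edgeR called 2 of the 26 higher and 10 lower, against 22.3% and 19% of all genes in that fit, at a median of -0.12. DESeq2 called 0 of them, against 14.4% of its genes in either direction. At an unadjusted edgeR p under 0.05 there were 2 higher and 1 lower, against 29.7% of all genes.

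Amino acid response genes were split. Of 20 tested, 10 were higher without glutamine with no overlap and 0 were lower, against 17.3% and 16.9% of all genes tested. EdgeR called 1, SLC7A11, and the median log2 fold change was 0.27. The genes of the list were chosen with earlier results of these data known, so this count is not independent evidence of its direction. CHAC1, a glutathione-degrading enzyme induced by ATF4, was closest in size to ADM2: it had 3.22, 1.81 and 2.46 CPM with glutamine against 6.78, 10.1 and 8.85 CPM without (log2 fold change 1.78, SE 0.24, edgeR adjusted p 0.068). ATF4 itself had 158, 153 and 167 CPM with glutamine against 181, 211 and 210 CPM without (0.33, SE 0.08, edgeR adjusted p 0.0772). TRIB3 and DDIT3, targets of ATF4 in stressed cells, had log2 fold changes of -0.15 and 0.02. DESeq2 called 8 of the list higher and 2 lower, against 14.4% of all genes in either direction. Without replicate 1 with glutamine edgeR called 10 higher and 3 lower, against 41.3% of all genes, at a median of 0.29.

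**Figure D4:**
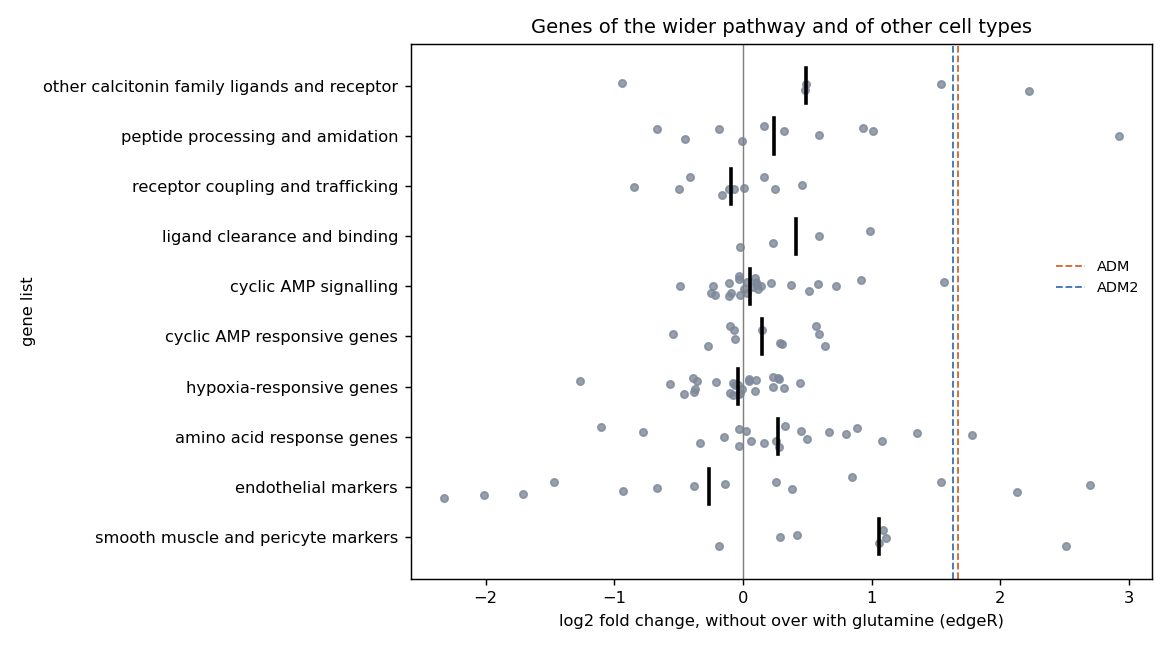
Log2 fold change without over with glutamine from edgeR (horizontal axis) of each tested gene (grey points, spread vertically for visibility) in 8 lists of the wider pathway and 2 of other cell types, with the median as a black bar; dashed lines mark ADM at 1.67 and ADM2 at 1.63. Hypoxia-responsive and cyclic AMP genes centre near 0, while endothelial markers lie on both sides.

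Markers of endothelial and smooth muscle cells, in which this system is prominent, were detected. A mean under 1 CPM over the libraries was seen for 5 of the 14 endothelial markers. CALCRL and RAMP2 are strongly expressed in endothelial cells, the lining of blood vessels. The 14 endothelial markers summed to 93.6 to 126 CPM with glutamine and 112 to 123 CPM without, and none was at 0 in all libraries. Of these, 2 were higher and 7 lower without overlap (17.3% and 16.9% of all genes tested), at a median log2 fold change of -0.26. As many had an unadjusted edgeR p under 0.05, which 29.7% of all genes had. EdgeR called 0 with all libraries, but 4 higher and 7 lower without replicate 1 with glutamine (22.3% and 19% of all genes in that fit). DESeq2 called 1 higher and 4 lower, against 14.4% of its genes in either direction. The defining genes PECAM1 and CDH5 were at 0.592 to 1.14 and 1.22 to 1.77 CPM with glutamine and at 0.230 to 0.331 and 0.384 to 0.624 CPM without, and KDR was at 24.3, 82.3 and 69.8 CPM with glutamine against 13.5, 12.7 and 17.5 CPM without. EMCN, a sialomucin of small vessels, went the other way, with 14.6, 1.81 and 1.83 CPM with glutamine against 22.8, 42.5 and 53.7 CPM without.

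Smooth muscle and pericyte markers summed to 228 to 296 CPM with glutamine and 290 to 450 CPM without. Of the 7, ACTA2 and RGS5 were higher without overlap (17.3% of all genes tested), at a median log2 fold change of 1.06 over the list. EdgeR called 0 with all libraries, and 4 had an unadjusted edgeR p under 0.05, against 29.7% of all genes. DESeq2 called 4 higher, against 7.75% of its genes. Without replicate 1 with glutamine edgeR called 5 higher and 1 lower, against 22.3% and 19% of all genes in that fit. ACTA2, smooth muscle actin, had 13.4, 12.7 and 16.2 CPM with glutamine against 46.6, 101 and 94.4 CPM without (log2 fold change 2.51, SE 0.29, edgeR adjusted p 0.068). ACTA2 was low in replicate 1 with glutamine and lowest without glutamine in replicate 1, as were TAGLN and CNN1. MYH11, RGS5 and DES were instead highest of their group in replicate 1 with glutamine, at 2.05, 8.94 and 4.24 CPM. PDGFRB had a log2 fold change of -0.19, with overlapping groups. Blood cell markers summed to 1.92 to 5.24 CPM over the 6 libraries. The part of any of these cell types in the levels of ADM, ADM2, CALCRL or RAMP2 was not tested.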

How the data were processed

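RNA of 6 libraries, 3 per group, was counted per gene. The authors deposited raw counts per Ensembl gene, and a second deposited table holds the same counts as a signal divided by 1 size factor per library (0.977 to 1.08, checked). The submitters' processing notes name cutadapt, Trim Galore, FastQC, STAR 2.5.2b, DESeq2 and GRCh38. The counting program, annotation and strand setting are not given in the sources used here. Per the labels, the kit was stranded and mRNA-based. Column headings name days 0 and 9, although all libraries are from day 9 per the labels; each sample's description ties its heading to its group, and every direction rests on that.

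Counts were tested with edgeR 4.0.16 (quasi-likelihood, legacy = FALSE, filterByExpr, TMM), with Benjamini-Hochberg adjustment over 22613 genes and a threshold of 0.05. SE is the absolute log2 fold change over the square root of F. Limma 3.58.1, DESeq2 1.42.0, other scalings and filters, a replicate block and leaving out each library were alternatives. The test was tested on simulated data. Log2 CPM for likeness used a prior count of 2. Symbols, positions and exon lengths (union of exons) came from GENCODE 29, which matched 56531 of 60107 IDs, and promoters from RefSeq on GRCh38.p14, which held 4 of the 6 members. Named genes are the members, genes of the lists, and the 5 genes of at least 1 CPM most like each member. The members, the lists and the legacy setting were chosen with earlier results of these data known. An item of the clearance list is not reported here, and the list's values leave it out. Same-numbered libraries did not deviate together (r of -0.021, 0 and 0.028).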

Additional observations from a re-analysis of the deposited data

How the results depend on the processing

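The number of genes called was 1 with all libraries. It was 0 under upper quartile scaling, library size only, edgeR's legacy setting, limma-voom and the replicate block (no pairing by number was seen), 2 with no filter and 3065 under DESeq2, which was run without the low-count filter. With 1 library left out it ran from 0 to 9573, the highest without replicate 1 with glutamine, and was 17 without replicate 1 of the other group. The cause was not tested. ADM had a log2 fold change of 1.63 to 1.68 under the other settings and 1.51 to 1.82 with 1 library left out. ADM2 was called under DESeq2 (1.64) and without replicate 1 with glutamine, with a range of 1.41 to 1.76 over the libraries left out; with the replicate block it was 1.61 (edgeR adjusted p 0.129). The ranges were -0.21 to 0.03 for CALCRL, whose sign turned without replicate 2 of the group without glutamine, 0.66 to 2.34 for RAMP1 and -0.39 to -0.22 for RAMP2, which was called without replicate 1 with glutamine only. RAMP1 then passed the filter only through the group where it was high.

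RAMP shares differed by 1.44 to 2.7 points for RAMP1 and -3.17 to -1.71 for RAMP2. List medians ran from 0.18 to 0.31 for peptide processing (0.20 under upper quartile scaling), 0.28 to 0.68 for clearance, 0.02 to 0.07 for cyclic AMP signalling (0.01 under upper quartile scaling) and 0.09 to 0.19 for cyclic AMP responsive genes. They ran from 0.25 to 0.95 for the other calcitonin family genes, -0.15 to -0.04 for coupling, -0.12 to 0.02 for hypoxia and 0.21 to 0.34 for the amino acid response. Depth limits RAMP3 and the low libraries of RAMP1.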

Other observations

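The receptor subunits had other companions than the ligands by the same measure of likeness over the 6 libraries. RAMP2 was closest to CTSL, which encodes the lysosomal protease cathepsin L, at a root mean square difference of 0.015 in log2 CPM. CTSL was at 44.7, 50.6 and 57.7 CPM with glutamine and at 35.2, 43.6 and 43.9 CPM without. The next were ATP5MC2, a subunit of ATP synthase, at 0.024, ERGIC3, a protein of the early secretory route, at 0.031, and the ribosomal protein genes RPS21 and RPL37A at 0.039 and 0.041. All 5 had log2 fold changes of -0.33 to -0.25, the size seen in RAMP2.

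RAMP1 was closest to LPAR3, a lysophosphatidic acid receptor, at 0.078 and to BRINP1 at 0.093. NRK, a kinase gene that was also among the 5, was at 1151, 238 and 263 CPM with glutamine and at 882, 867 and 1328 CPM without. The same 4 libraries were high in RAMP1 and NRK, which the choice by likeness fixes. CALCRL was closest to ANGPT1, the ligand of the endothelial receptor TEK, at 0.043. ANGPT1 had 29.6, 33.9 and 35.4 CPM with glutamine against 31.0, 28.0 and 36.1 CPM without. With 15594 genes compared over 6 libraries, close patterns are to be found for most genes, and these are given as descriptions.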
